A study of Mus musculus with 2 samples.

Results

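Chemokine ligand genes and the colony-stimulating factor genes were described in mammary basal cells from control mice and from mice treated to deplete macrophages. The members were all genes of the count table named *Ccl*, *Cxcl*, *Cx3cl1*, *Xcl1* or *Csf1* to *Csf3*, found by a rule on gene names that uses no measured value, and they numbered 41 of 49492 genes. The study asked how basal cells change when macrophages are removed from the gland. The CL basal library (CL below) came from wild-type mice given clodronate liposomes (CL), lipid vesicles whose drug kills the macrophages that take them up, in 3 intraperitoneal injections 2 days apart. The Ctrl basal library (Ctrl below) came from wild-type mice whose treatment is labelled as none and which the series' design describes as given saline. Both were labelled day 7, and the study used adult females of 8 to 10 weeks. The strain and the number of mice behind each library are not given in the sources used here. Basal cells, the contractile cells around the mammary ducts and alveoli, were sorted as CD24+ CD29hi cells after cells bearing CD45, CD31 or TER119 (leukocytes, endothelium and red cells) had been gated out.

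Chemokines are small, mostly secreted proteins that guide leukocytes along a gradient, and they are grouped as CC, CXC, CX3C or C by the spacing of their first cysteines. Each acts through G protein-coupled receptors on the responding cell, and a few atypical receptors take chemokines up without signalling in the usual way. The colony-stimulating factors act on myeloid cells: *Csf1* encodes the main survival factor of macrophages, *Csf2* encodes GM-CSF and *Csf3* encodes G-CSF, the growth factor of neutrophils. Mice that lack Csf1 have few mammary macrophages and poorly branched ducts.

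There was 1 library per group, so the differences below have no replicate check and carry no p-value. The libraries held 38962512 counts in CL and 37846008 in Ctrl. All 10 genes of a basal list were well expressed in both, with log2 ratios (TMM-scaled counts of CL over Ctrl) from -0.23 to 0.33. RNA of other cells was also present, and in these bulk libraries fewer cells of a type and less RNA per cell cannot be told apart. The summed counts of luminal markers were 102371 in CL and 183699 in Ctrl, those of fibroblast markers were 8215 and 10097, and those of endothelial markers were 15128 and 18333.

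Levels were compared between genes as CPM (counts scaled to library size) per kilobase of exon. The highest level was that of *Cxcl14*, a chemokine of epithelia, with 952 in CL and 807 in Ctrl. *Cxcl1*, which attracts neutrophils, came next with 376 and 427. *Csf1* had 86.0 and 78.6, and *Cxcl2*, a close relative of *Cxcl1*, had 74.3 and 67.0. These 4 genes held the same ranks in both libraries. *Cxcl14*, *Cxcl1* and *Csf1* together made up 80.5% of the members' counts in CL and 78.7% in Ctrl. Below them, *Ccl21a*, *Cxcl16* and *Csf3* lay between 35.5 and 55.8 in either library, and 13 members in CL and 14 in Ctrl exceeded a level of 10. The macrophage and neutrophil growth factors *Csf1* and *Csf3* were thus among the 7 members with the highest levels, and *Csf2* was far lower, at 1.56 and 3.32.

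**Figure D1:**
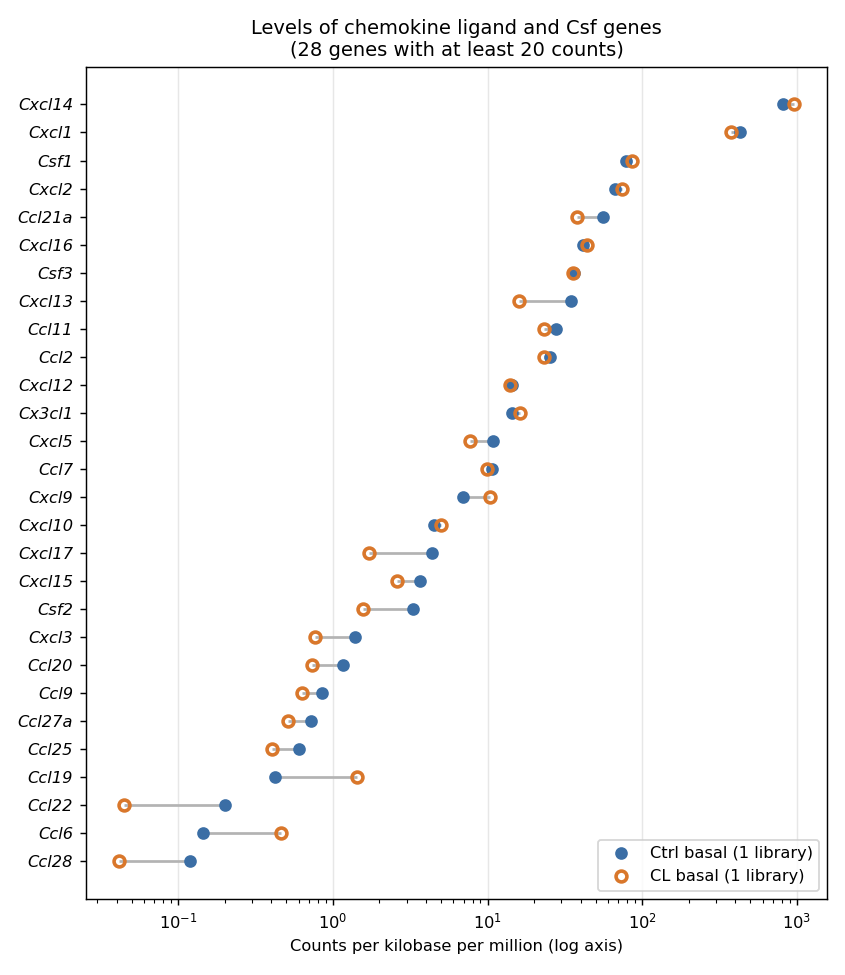
Level of each of the 28 chemokine ligand and Csf genes with at least 20 counts, in CPM per kilobase on a log axis, with a filled point for Ctrl basal and an open point for CL basal (1 library each). The levels in Ctrl basal run from *Ccl28* (0.119) to *Cxcl14* (807), and the open and filled points lie close together for most of the higher genes.

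At the other end, 13 of the 41 members had under 20 counts over both libraries and were not compared. *Ccl26* and *Ccl27b* had 0 counts in both. The other 11 had at most 8 counts in CL and 10 in Ctrl, and included *Ccl3*, *Ccl4*, *Ccl5*, *Ccl8*, *Ccl12* and *Xcl1*, ligands known from activated leukocytes. *Ccl3*, encoding MIP-1 alpha, had 0 counts in CL and 10 in Ctrl, a level of 0.340. A count of 0 was taken to allow up to 3 counts, for *Ccl3* in CL 0.102 CPM per kilobase. Low counts in the table were mostly even (68.7% of the values from 1 to 20 in CL and 67.9% in Ctrl), as they are when both mates of each read pair add to the count. Intervals below are therefore 95% exact binomial intervals from halved counts, and they cover counting error only. The limit given for *Ccl3* rests on counts that were not halved, and it would be higher if mates were counted separately.

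Most members differed little between the libraries. Of the 28 members with at least 20 counts, 21 differed by less than 2-fold, 5 were at least 2-fold lower in CL and 2 were at least 2-fold higher. Lower members were *Cxcl13*, *Cxcl17*, *Csf2*, *Ccl22* and *Ccl28*, and higher members were *Ccl19* and *Ccl6*. These shares, 17.9% lower and 7.14% higher, stood beside 4.79% and 2.07% of all 17356 genes with at least 20 counts. Genes of low abundance pass a fold threshold more easily, and among the 24 members with at least 100 counts 3 were at least 2-fold lower and 0 higher, beside 1.83% and 0.481% of 13507 genes. The median log2 ratio was -0.22 over the 28 members, beside -0.007 over all genes. Of the 28 members, 19 lay below 0 and 9 above, while the sum of all members' counts was 138360 in CL and 130954 in Ctrl, with *Cxcl14* making up 48.3% and 43.1% of it.

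The intervals show how far counting error reaches. Among the 24 members with at least 100 counts, the interval lay wholly below 0 for 10, wholly above 0 for 5 and held 0 for 9. Of all 13507 genes with at least 100 counts, the interval lay wholly below 0 for 19.8% and wholly above 0 for 22.5%. Of the 7 members past 2-fold, *Ccl22* and *Ccl28* had an interval that held 0. The spread between animals cannot be estimated from these libraries.

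**Figure D2:**
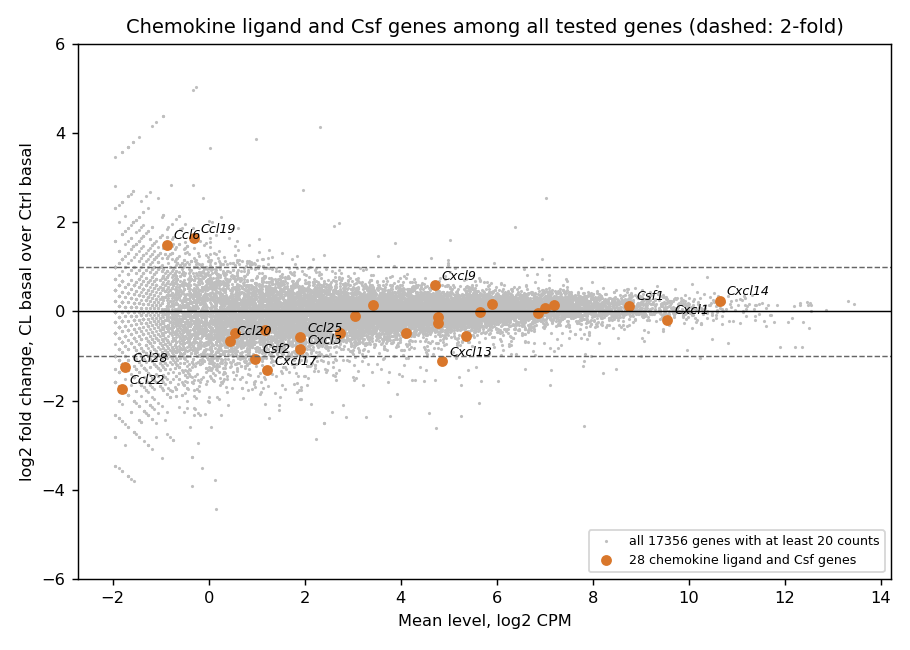
Log2 fold change of CL basal over Ctrl basal (vertical) against mean level in log2 CPM (horizontal), for all 17356 genes with at least 20 counts (grey) and the 28 chemokine ligand and Csf genes (orange), with dashed lines at 2-fold. *Cxcl13* (-1.11) lies at the lower edge of the grey cloud at its level, and *Cxcl14*, *Cxcl1* and *Csf1* lie near 0 at the right.

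The 3 colony-stimulating factor genes went different ways. *Csf1* (chromosome 3, 107741048 to 107760469, GRCm38) had 17459 counts in CL and 15915 in Ctrl, a log2 ratio of 0.13 (interval 0.09 to 0.17). The gene for the ligand on which macrophages depend was therefore slightly higher in the library of mice treated to remove macrophages, by 1.09-fold. After subtraction of a trend with mean expression the log2 ratio of *Csf1* was 0.05, outside that interval. *Csf3* (chromosome 11, 98701263 to 98703629) had 1929 and 1951 counts, a log2 ratio of -0.02 (-0.15 to 0.11), and no difference was detectable at this depth. *Csf2* (chromosome 11, 54247271 to 54249667) had 48 and 102 counts, a log2 ratio of -1.06 (-1.86 to -0.36). The interval of *Csf2* was wide, 96 of its 800 exonic bases overlap *Gm12223* on the other strand (14 and 33 counts), and its value was -0.95 after subtraction of a trend with mean expression.

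The neutrophil-attracting CXC genes act mostly through the receptor encoded by *Cxcr2*, and all 5, *Cxcl1*, *Cxcl2*, *Cxcl3*, *Cxcl5* and *Cxcl15*, lie in a cluster on chromosome 5. *Cxcl1* (90891241 to 90893115) had 27111 counts in CL and 30698 in Ctrl, a log2 ratio of -0.18 (-0.22 to -0.15). Its neighbour *Cxcl2* (90903871 to 90905938) had 5909 and 5314 counts and went the other way, with 0.15 (0.07 to 0.23). *Cxcl3* (90786103 to 90789600) had 103 and 186 counts and the largest difference of the 5, -0.84 (-1.36 to -0.34), which was under 2-fold. *Cxcl5* (90759360 to 90761624) had 552 and 776 counts, with -0.49 (-0.72 to -0.27), and *Cxcl15* (90794534 to 90803067) had 213 and 300, with -0.49 (-0.86 to -0.12). Thus 4 of the 5 were lower and 1 was higher, 0 of them by 2-fold. The level of *Cxcl1* was 5.06 times that of *Cxcl2* in CL and 6.37 times in Ctrl, and it exceeded that of *Cxcl3* by 491 and 308 times.

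The promoters of *Cxcl1*, *Cxcl2* and *Cxcl3* are shown because these clustered genes share letters of the NF-kB type within 100 bases of the start, although their levels differ widely. NF-kB is the transcription factor through which TNF and interleukin 1 induce many chemokines. The sequences run from 120 bases before to 20 bases after the start site, 5′ to 3′ on the plus strand, from RefSeq (GRCm38.p6, chr5:90891125-90891264, chr5:90903779-90903918 and chr5:90785981-90786120), and the capitals mark GGGNNTTTCC on either strand and TATAAA.
Cxcl1: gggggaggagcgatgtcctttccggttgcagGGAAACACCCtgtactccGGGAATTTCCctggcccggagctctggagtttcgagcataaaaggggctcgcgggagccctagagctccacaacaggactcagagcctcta
Cxcl2: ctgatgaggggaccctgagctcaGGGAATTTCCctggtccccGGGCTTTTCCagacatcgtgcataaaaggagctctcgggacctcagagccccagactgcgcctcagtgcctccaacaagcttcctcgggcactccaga
Cxcl3: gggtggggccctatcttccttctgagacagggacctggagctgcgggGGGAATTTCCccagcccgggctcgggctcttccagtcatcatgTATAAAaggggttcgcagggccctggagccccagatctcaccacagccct

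The same 10 letters, GGGAATTTCC, start at -71 in *Cxcl1*, -97 in *Cxcl2* and -73 in *Cxcl3*, counted from the start site. *Cxcl1* and *Cxcl2* each hold a second match, at -89 and -78. Windows of 300 bases (250 before to 50 after the start) were found for 29 of the 41 members, at RefSeq start sites that can differ from the start of the counted gene and with more than 1 window for some genes, and GGGNNTTTCC occurred on either strand in 6 of them, *Ccl9*, *Ccl20*, *Csf1*, *Cxcl1*, *Cxcl2* and *Cxcl3*. That is 20.7%, beside 1.89% of the 27025 genes with a window. The 6 genes with a match had log2 ratios from -0.84 (*Cxcl3*) to 0.15 (*Cxcl2*) and none passed 2-fold. A match describes the letters of the window and not the binding of a factor.

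The interferon-inducible CXC genes attract activated T cells and NK cells through the receptor encoded by *Cxcr3*. *Cxcl9* (chromosome 5, 92321347 to 92328079) had 1209 counts in CL and 800 in Ctrl, a log2 ratio of 0.59 (0.41 to 0.78), the largest positive value among the 24 members with at least 100 counts. *Cxcl10* (92346638 to 92348889), its neighbour, had 432 and 389 counts, a log2 ratio of 0.15 (-0.14 to 0.43), and the difference was not detectable at this depth. *Cxcl10* shares 133 of its 2252 exonic bases with *Art3* on the other strand. *Cxcl11* had 7 and 2 counts. The windows of *Cxcl10*, *Ccl19* and *Cxcl14* held GAAANNGAAA, the core of an interferon response element, on either strand (10.3% of the 29 members with a window, beside 3.99% of all genes), and that of *Cxcl9* did not.

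A list of 17 genes of the interferon gamma response was set beside these genes. It was drawn up with earlier results of these data known and so gives no independent support. The interval lay above 0 for 13 of the 17, beside 22.5% of all genes with at least 100 counts, and held 0 for 4, and 9 were at least 2-fold higher in CL, beside 2.07% of all genes. The median log2 ratio was 1.07. *H2-Ab1*, an MHC class II gene, had 8525 and 1465 counts (2.54), and the GTPase gene *Gbp2* had 6534 and 2899 (1.17). The others past 2-fold were *H2-Aa* (1.99), *Cd74* (1.90), *H2-Eb1* (1.60), *Tap1* (1.21), *Gbp7* (1.14), *Igtp* (1.09) and *Iigp1* (1.07). *Irf1* (0.41), a transcription factor of this response, stayed under 2-fold as *Cxcl9* did. *Ifng* itself had 2 and 4 counts.

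Of the chemokines that are made as membrane-anchored proteins, *Cx3cl1* was slightly higher and *Cxcl16* showed no detectable difference. *Cxcl16* (chromosome 11, 70453983 to 70459984), the ligand of Cxcr6, had 5080 and 4819 counts, a log2 ratio of 0.07 (-0.01 to 0.15). Of its 3021 exonic bases, 552 overlap *Zmynd15* on the other strand, which had 1533 and 1529 counts, so its value is uncertain. *Cx3cl1* (chromosome 8, 94772009 to 94782427), encoding fractalkine, the ligand of a receptor on monocytes and macrophages, had 2437 and 2172 counts, with 0.16 (0.04 to 0.28).

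Of the homeostatic CXC genes, which are expressed in resting tissues, *Cxcl13* and *Cxcl17* were past 2-fold, and *Cxcl14* and *Cxcl12* were not. *Cxcl14* (chromosome 13, 56288647 to 56296551) had 66762 counts in CL and 56428 in Ctrl, a log2 ratio of 0.24 (0.22 to 0.26). *Cxcl12* (chromosome 6, 117168535 to 117181367), the ligand of Cxcr4 and Ackr3 and a product of stromal cells, had 4407 and 4515 counts and no detectable difference (-0.04, -0.12 to 0.05). *Cxcl13* (chromosome 5, 95956951 to 95961068), which attracts B cells through Cxcr5, had 704 and 1521 counts. Its log2 ratio of -1.11 (-1.30 to -0.93) was the only one past 2-fold that rested on more than 1000 counts in either library. *Cxcl17* (chromosome 7, 25400053 to 25412886), a chemokine of mucosal epithelium, had 50 and 128 counts, with -1.33 (-2.09 to -0.67).

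Most markers of luminal cells, fibroblasts and pericytes were also lower in CL. The interval lay below 0 for 12 of the 13 luminal markers, 3 were at least 2-fold lower in CL, beside 4.79% of all genes, and the median log2 ratio was -0.86. Of 10 fibroblast markers, 7 had an interval below 0 and 3 were at least 2-fold lower (median -0.53). All 5 pericyte markers had an interval below 0 (median -0.59, with 3466 counts in CL and 5202 in Ctrl). Among all genes with at least 100 counts, 19.8% had an interval below 0. The part of these cells in the lower counts of *Cxcl13*, *Cxcl17* and *Csf2* was not tested.

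The promoters of *Csf2* and *Cxcl13* are shown because these are the members past 2-fold, with at least 100 counts, for which a window was found. Both run from 120 bases before to 20 bases after the start site, 5′ to 3′, of RefSeq (GRCm38.p6). The RefSeq start site of *Csf2* lies 232 bases upstream of the start of the gene as counted, so its window does not reach the counted gene, and that of *Cxcl13* lies 12 bases upstream. *Csf2* is on the minus strand (chr11:54249880-54250019) and *Cxcl13* on the plus strand (chr5:95956819-95956958), with the same letters in capitals as above.
Csf2: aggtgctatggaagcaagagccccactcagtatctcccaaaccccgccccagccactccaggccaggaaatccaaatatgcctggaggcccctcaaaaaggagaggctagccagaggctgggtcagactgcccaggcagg
Cxcl13: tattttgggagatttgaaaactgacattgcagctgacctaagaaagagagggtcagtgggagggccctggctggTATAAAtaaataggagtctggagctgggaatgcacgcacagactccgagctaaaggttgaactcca

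GGGNNTTTCC was in neither window, and TATAAA started at -46 in *Cxcl13*. Across the 29 members with a window, TATAAA occurred on either strand in 10 (34.5%), beside 15.7% of all genes. The AP-1 type letters TGANTCA occurred in 6 (20.7%, beside 8.97%) and the GAS type letters TTCNNNGAA in 2 (6.90%, beside 9.55%).

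**Figure D3:**
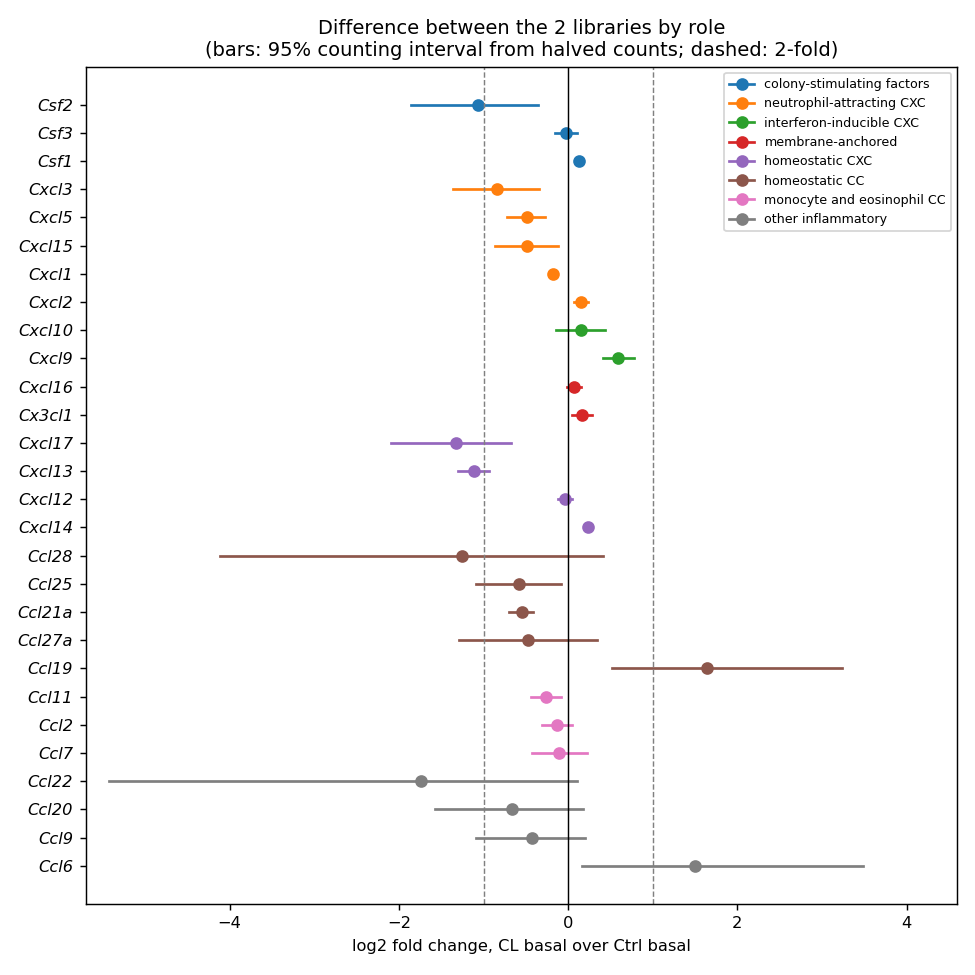
Log2 fold change of CL basal over Ctrl basal for the 28 genes with at least 20 counts, grouped by role in colour, with bars for the 95% exact binomial interval from halved counts and dashed lines at 2-fold. The bars of *Cxcl13*, *Cxcl17* and *Csf2* lie below 0 and cross the 2-fold line, while *Csf1*, *Csf3*, *Cxcl1*, *Cxcl2* and *Cxcl14* lie near 0 with short bars.

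Homeostatic CC genes guide lymphocytes and dendritic cells to lymphoid and mucosal tissue. *Ccl21a* (chromosome 4, 42772860 to 42773993), the most abundant CC gene and a ligand of Ccr7, had 1272 counts in CL and 1863 in Ctrl, a log2 ratio of -0.55 (-0.70 to -0.41). Near-identical copies of this gene lie on the same chromosome: *Gm21541*, with the same length of 870 bases, had 192 and 194 counts, and *Ccl21b* had 2 and 3. Reads of these copies may have been split between them, so the value of *Ccl21a* alone is uncertain. *Ccl19* (42754525 to 42756577), the other ligand of Ccr7, went the opposite way with 48 and 14 counts, a log2 ratio of 1.64 (0.52 to 3.23). A pseudogene copy, *Ccl19-ps3*, had 0 and 8 counts, so the value of *Ccl19* is uncertain as well. *Ccl25* was lower, and for *Ccl27a* and *Ccl28* no difference was detectable beyond counting error. *Ccl25* (chromosome 8, 4325210 to 4360020), a chemokine of thymus and gut, had 115 and 173 counts, with -0.58 (-1.09 to -0.09), and 204 of its 7445 exonic bases overlap *Elavl1* on the other strand (2850 and 2522 counts). *Ccl27a* (chromosome 4, 41769467 to 41774247), a chemokine of skin, had 47 and 66, with -0.48 (-1.29 to 0.34). *Ccl28* (chromosome 13, 119623819 to 119654354), a mucosal chemokine, had 6 and 17, with -1.25 (-4.11 to 0.41). Lymphatic endothelium is a known source of *Ccl21a*, and 5 of the 8 endothelial markers had an interval below 0, beside the 19.8% of all genes, while *Emcn* had one above 0 (0.47, 0.05 to 0.93) and the median was -0.24. Their part in its value was not tested.

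Ligands for monocytes and eosinophils lay close to level. *Ccl2* (chromosome 11, 82035571 to 82037453), the main ligand of Ccr2 on monocytes, had 1014 counts in CL and 1106 in Ctrl, a log2 ratio of -0.13 (-0.31 to 0.05). *Ccl7* (82045712 to 82047525), its neighbour and a ligand of the same receptor, had 307 and 330 counts, with -0.11 (-0.43 to 0.22). Neither difference was detectable at this depth. The level of *Ccl2* was 2.32 times that of *Ccl7* in CL and 2.36 times in Ctrl. *Ccl11* (82057823 to 82062955), encoding eotaxin, had 965 and 1154 counts, with -0.26 (-0.44 to -0.08). The remaining 4 genes of this group, *Ccl8*, *Ccl12*, *Ccl24* and *Ccl26*, had at most 2 counts in either library.

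The other inflammatory ligands were scarce. *Ccl9* (chromosome 11, 83572919 to 83578636) had 74 and 100 counts, a log2 ratio of -0.43 (-1.09 to 0.20). *Ccl20* (chromosome 1, 83116766 to 83119167), the ligand of Ccr6, had 40 and 64, with -0.66 (-1.57 to 0.17). For neither was a difference detectable at this depth. *Ccl6* (chromosome 11, 83587882 to 83593087) had 32 counts in CL and 10 in Ctrl, which was 2.83-fold higher in CL (log2 interval 0.16 to 3.48). *Ccl22* (chromosome 8, 94745590 to 94751699), a ligand of Ccr4, had 4 and 18 counts, with -1.74 (-5.42 to 0.10). These 10 genes together held 168 counts in CL and 208 in Ctrl.

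Receptors for these ligands were then examined, in a list of 28 genes. Of these, 16 had at least 20 counts, 12 of them with an interval that held 0, and 0 passed 2-fold in either direction (median -0.03), beside the 4.79% and 2.07% of all genes. Receptors found mainly on leukocytes had few counts: *Csf1r*, the receptor of Csf1 on macrophages, had 89 counts in CL and 64 in Ctrl (0.46, -0.20 to 1.19), and *Ccr2* had 20 and 10 (0.87, -0.69 to 2.89). *Cxcr2*, the receptor of the neutrophil-attracting ligands, had 12 and 6 counts, and *Cxcr3* had 2 and 0. *Cxcr4* had 178 and 120 counts (0.56, 0.08 to 1.06). All 7 leukocyte chemokine receptors with at least 20 counts had values from -0.25 to 0.87, with a median of 0.56.

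The atypical receptor genes lay close to level. *Ackr3*, whose product takes up Cxcl12, had 1767 counts in CL and 1720 in Ctrl (0.04, -0.10 to 0.17). The other 4 atypical receptor genes lay between -0.39 (*Ackr1*) and -0.07 (*Ackr4*). The GM-CSF receptor genes *Csf2ra* (284 and 407 counts, -0.52) and *Csf2rb* (1126 and 1401, -0.32) were lower, as was *Csf2rb2*, which encodes the beta chain specific to interleukin 3 (869 and 1074, -0.31). *Csf2rb* and *Csf2rb2* are close paralogs whose reads may have been split between them.

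Among cytokines that induce chemokines, *Il6*, *Tnf* and *Il1b* had at least 20 counts. *Il6* (3651 and 4821 counts, -0.40, interval -0.49 to -0.32) and *Tnf* (180 and 275, -0.61, -1.02 to -0.23) were lower. *Il1b* (132 and 86, 0.60, 0.04 to 1.20) was higher, and 0 of the 3 passed 2-fold. Of 10 further attractants and macrophage factors, 8 had at least 20 counts and 1 was at least 2-fold higher. Both counts stand beside 4.79% of all genes lower and 2.07% higher. This was *Il34*, the gene of the second ligand of the Csf1 receptor, which had 86 counts in CL and 32 in Ctrl, a log2 ratio of 1.37 (0.57 to 2.35). Thus *Il34* was higher by more than *Csf1* was, from a far smaller number of reads.

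Leukocyte markers had few counts in either library. The 5 pan-leukocyte genes held 686 counts in CL and 688 in Ctrl, and *Ptprc*, which encodes CD45, held 521 and 537 of them. Of the 13 macrophage markers, *Adgre1*, which encodes F4/80, had 10 and 7 counts. Of the 9 macrophage markers with at least 20 counts, 7 had an interval that held 0, and 1 was at least 2-fold lower (*C1qc*, 6 and 16 counts). The 8 neutrophil markers held 166 and 36 counts, and 2 of them had at least 20 counts, *S100a9* with 66 and 15 counts and *Ngp* with 76 and 16, while *Ly6g* and *Elane* had 0 in both. The 7 dendritic cell markers held 731 and 874 counts, of which *Zbtb46* gave 596 and 716. Among them *Itgax*, which encodes CD11c, had 18 and 42 counts (-1.14, -2.54 to -0.04) and *Xcr1* had 26 and 14 (0.80, -0.54 to 2.45). The part of leukocytes in the higher counts of *Ccl6* and *Ccl19*, which myeloid and dendritic cells are known to express, was not tested.

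**Figure D4:**
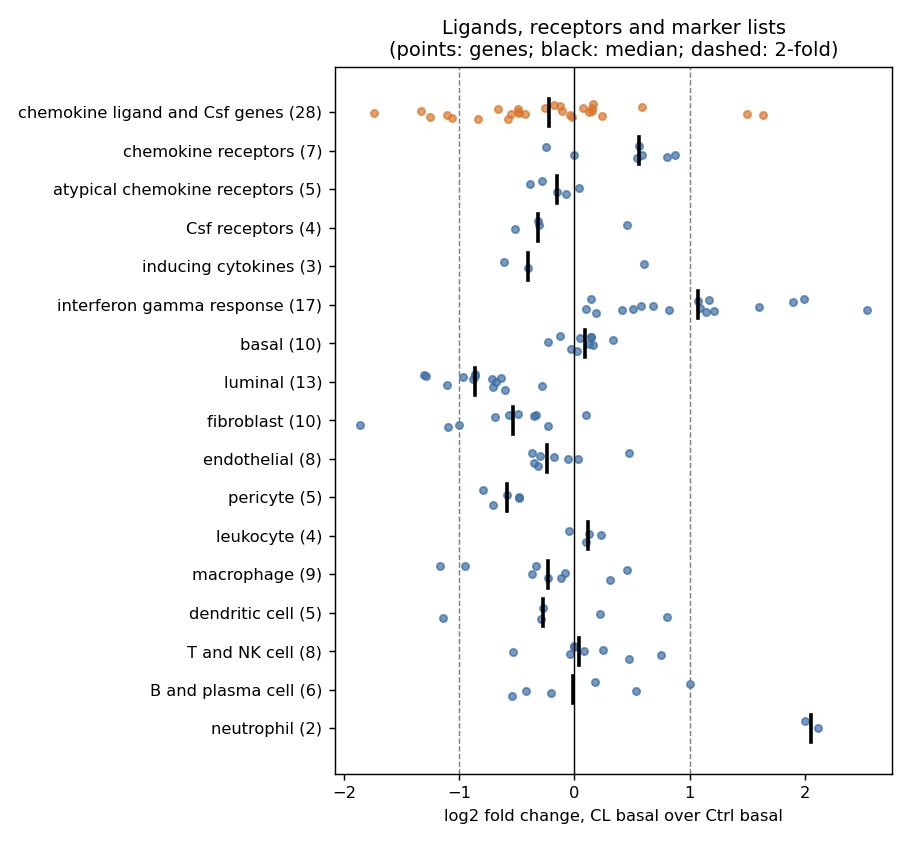
Log2 fold change of CL basal over Ctrl basal for each gene with at least 20 counts in the lists of ligands (orange), receptors, cytokines and cell type markers (blue), with the median of each list as a black bar, the number of genes in parentheses and dashed lines at 2-fold. The ligands centre on -0.22, the interferon gamma response genes on 1.07 and the luminal markers on -0.86.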

How the data were processed

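RNA of sorted mammary basal cells was sequenced on an Illumina instrument, with 1 library per group. The authors deposited raw read counts per gene over annotated exons, not normalized, in the column layout of featureCounts, with the exonic length of each gene. The genome build is GRCm38 (mm10) per the labels, and all 41 members lay at the same place in GENCODE M21, 39 with the same start and end. Aligner, strand setting, filters and removal of PCR copies are not given in the sources used here. The labels and the study's methods name different RNA extraction kits. The file's own ratio and log2 fold change of the libraries were not used. Names turned into dates by a spreadsheet (26) touch no member.

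TMM factors (trimmed mean of M-values) of 0.9869 (CL basal) and 1.0133 (the control) were taken from edgeR 4.0.16 under R 4.3.3. To each count a library-size-scaled prior of 2 was added before the log2 ratio was formed, and genes were compared when both libraries summed to 20 counts or more. Levels are scaled counts per kilobase of exonic length. No spread between replicates can be estimated, so a difference was called at 2-fold with no test. Intervals came from the share of a gene's halved counts in CL basal (scipy 1.17.1, Python 3.11.15) and compare these libraries, not the conditions. The limit of a count of 0 was 3 counts, not halved. The fold and its interval were checked on simulated counts in which no mates were paired and no count was halved. That check therefore does not cover the halved intervals given here. Every member with at least 100 counts, every member past 2-fold, and pathway list genes past 2-fold with *Csf1r*, *Ccr2*, *Cxcr4* and *Ackr3* were to be named. *Cxcr2*, *Cxcr3*, *Ifng*, *Irf1* and cell type markers were named after their values had been seen. Some list genes are not reported here. Members, roles and lists were chosen with earlier results of these data known. Alternatives were other scalings (total counts, DESeq2 1.42.0 size factors, upper quartile), prior counts, filters, thinning, halved counts, removal of a trend on mean expression, a threshold of 1.5-fold, the interval, and edgeR's exact test with an assumed spread.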

Additional observations from a re-analysis of the deposited data

How the results depend on the processing

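The counts of members past 2-fold, 5 lower and 2 higher, were unchanged under the other scalings (total counts, DESeq2 size factors, upper quartile), both other prior counts, thinning and halved counts. With the trend on mean expression removed, *Csf2* (-0.95) no longer passed, and 4 were lower and 2 higher (662 and 487 of 17356 genes). Without a filter on low counts, 8 were lower and 4 higher, since genes of a few reads entered (3208 and 1342 of 24944 genes in all). With at least 100 counts, 3 were lower and 0 higher (247 and 65 of 13507 genes), since fewer genes were compared. Requiring the interval to lie beyond 0 left 3 lower, without *Ccl22* and *Ccl28*, and 2 higher (578 and 227 of 17356 genes). When edgeR was given an assumed coefficient of variation between animals, which these libraries cannot supply and which sets the outcome, 0 were lower and 0 higher at 0.2 and at 0.4 (108 and 42 of all 17356 genes at 0.2, and 0 and 2 at 0.4). At 1.5-fold, 7 members were lower and 3 higher (2029 and 1098 of 17356 genes), and 3 receptor genes were higher in place of 0. The median of the members ran from -0.267 with the trend removed to -0.129 without a filter. Without *Cxcl13*, *Csf2* and *Cxcl17*, an alternative chosen after seeing the data, it was also -0.129. The median of all genes ran from -0.045 (total counts) to 0.004 (upper quartile).

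Of 224 values of the 28 named members under alternatives, 218 stayed within their interval. The other 6 were of *Cxcl14*, *Cxcl1*, *Csf1* and *Cxcl2*, whose intervals are narrow. *Cxcl16* reached -0.00 with the trend removed, and no other value changed sign. No paired analysis was possible because neither group had a second library. Depth limits the 4 members with at least 20 but under 100 counts and the 13 below 20.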

Other observations

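Marker lists of further cell types were also summed. The 12 T and NK cell markers held 302 counts in CL and 267 in Ctrl, with a median log2 ratio of 0.04 over 8 genes, and the 7 B and plasma cell markers held 572 and 447. The 5 mast cell markers held 14 and 18 counts, with 0 genes compared. The 6 adipocyte markers held 3545 and 4777 counts, almost all from *Fabp4* (3465 and 4648). The 7 keratinocyte markers held nearly equal sums, 1289 and 1287 counts, but *Krt1* had 367 and 19 and *Krt10* had 262 and 38, while *Sbsn* had 615 and 1196. *Ccl27a*, the chemokine of skin keratinocytes, had 47 and 66 counts.

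Among the other leukocyte attractants, *Anxa1*, whose product limits neutrophil entry, had 6636 counts in CL and 10084 in Ctrl (-0.61, interval -0.67 to -0.54). *Mif*, encoding macrophage migration inhibitory factor, had 1174 and 881 (0.41, 0.23 to 0.59), and *Rarres2*, encoding chemerin, had 247 and 361 (-0.55, -0.89 to -0.21). *Ppbp*, the platelet chemokine gene that lies outside the naming rule, had 0 counts in both libraries, and *Pf4* had 18 and 12.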
